A study of Rattus norvegicus with 4 samples.

Results

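The dystrophin-glycoprotein complex was examined here through the genes of 8 of its components in cultured neonatal rat ventricular cardiomyocytes with and without phenylephrine (PE). Of the 8 genes 3 passed the test, beside 15.7% of all tested genes. In edgeR none of the 8 passed when either PE library was left out, and a smaller share of all tested genes passed then. Dtna, the gene of alpha-dystrobrevin, rose, while Sgca, the gene of alpha-sarcoglycan, and Sspn, the gene of sarcospan, fell. The genes were chosen by name: Dmd, Utrn, Dtna, Dag1, Sgca, Sgcb, Sgcd and Sspn. Each name belonged to 1 identifier, all 8 passed the filter on low counts, and they stand among 15257 tested genes of 32883 in the table. The smallest count of any of the 8 genes in any library was 1039.

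Cells came from Sprague-Dawley rats at postnatal day 2 and were enriched for cardiomyocytes by letting other cells attach first. The PE group (2 libraries) received 20 µM PE, an agonist of adrenergic receptors used to induce hypertrophic growth in culture, for 24 h, and the control group (2 libraries) was untreated. Both groups were of the same strain and age and were grown in medium with serum. RNA was depleted of ribosomal RNA and made into strand-specific libraries, so the values count reads per gene. The labels do not say that replicates are separate cultures or how many animals were pooled, so a p-value here speaks only of the scatter among 4 libraries, which may be technical.

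As background, the complex links the actin cytoskeleton inside a muscle cell to the extracellular matrix outside it. Dystrophin binds actin at one end and beta-dystroglycan at the other, alpha-dystroglycan binds laminin, and the sarcoglycans and sarcospan form a group of membrane proteins that sits beside dystroglycan. Loss of dystrophin or of alpha-, beta- or delta-sarcoglycan is known to cause muscular dystrophy, in some forms with cardiomyopathy. Utrophin is a relative of dystrophin that can take its place.

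The regions upstream of the genes that passed the test are shown first, because those genes moved in opposite directions. Each sequence is the 250 bases before the gene start in the RefSeq annotation of build GRCr8, 5′ to 3′ on the gene's strand, and capitals mark E-box letters (CANNTG), the core bound by basic helix-loop-helix factors. They lie at chr18:14961785-14962034 on the plus strand for Dtna, chr10:80416076-80416325 on the minus strand for Sgca and chr4:180627632-180627881 on the plus strand for Sspn.
Dtna: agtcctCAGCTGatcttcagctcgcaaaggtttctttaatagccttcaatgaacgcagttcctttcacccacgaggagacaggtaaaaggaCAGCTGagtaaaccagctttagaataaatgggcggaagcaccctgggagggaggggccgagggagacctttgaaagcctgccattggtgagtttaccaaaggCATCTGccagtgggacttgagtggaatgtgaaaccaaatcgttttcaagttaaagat
Sgca: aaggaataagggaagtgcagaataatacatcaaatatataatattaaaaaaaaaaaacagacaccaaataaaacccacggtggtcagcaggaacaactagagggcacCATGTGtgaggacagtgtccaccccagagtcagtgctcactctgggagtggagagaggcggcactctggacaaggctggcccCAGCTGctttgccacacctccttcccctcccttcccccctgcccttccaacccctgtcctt
Sspn: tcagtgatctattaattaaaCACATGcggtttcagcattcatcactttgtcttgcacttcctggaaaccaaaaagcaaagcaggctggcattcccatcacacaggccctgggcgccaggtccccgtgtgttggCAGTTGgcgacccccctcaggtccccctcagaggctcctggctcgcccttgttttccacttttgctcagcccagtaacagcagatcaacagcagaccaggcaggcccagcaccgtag
The E-box letters, which read the same on both strands, occurred 3 times upstream of Dtna, 2 times upstream of Sgca and 2 times upstream of Sspn, and 65.5% of all 33469 windows of this length held at least 1. The GC box letters GGGCGG, searched on both strands, occurred 1 time upstream of Dtna and in neither of the other windows (30.5% of all windows). No match to the letters AGATAA (10.3% of all windows), to the MEF2 motif (2.96%) or to the CArG box (1.5%) was found in the windows shown, in searches of both strands. None of the motifs overlapped in these windows. A match is a description of the letters and not evidence that a factor binds. The same table lists 3 start windows for Dmd, whose full-length and short dystrophins start at separate promoters, and the count of a gene sums all its transcripts, so isoforms were not told apart.

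Total counts were 56948370 and 48075810 in the PE libraries and 51917449 and 45637881 in the control libraries. Mitochondrial-genome transcripts took 4.61% and 4.76% of counts in the PE libraries, against 6.19% in control replicate 1 and 11.7% in control replicate 2. Changes were tested with edgeR's quasi-likelihood test and called at a Benjamini-Hochberg adjusted p under 0.05 over all tested genes. Levels are counts divided by the TMM-scaled library size (CPM), which allow a gene to be compared between libraries, and no level is set against that of another gene because transcript lengths were not used. The labelled cell type was checked against its markers. Of 8 cardiomyocyte markers 7 were tested, and their summed level was 10418 and 11433 CPM in PE libraries, against 10680 and 11713 CPM in control libraries. The sum hides changes in both directions, with 3 markers above 0 and 4 below. In edgeR 1 was called higher, Myl2 (0.71 ± 0.18, adjusted p = 0.0217), and 6 did not pass, among them Myh6 (-0.54 ± 0.22, adjusted p = 0.132). DESeq2 called 2.

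Of the 8 genes, 1 was called higher, 2 were called lower and 5 did not pass, a share of 37.5% called. Over all tested genes 15.7% were called, 7.39% higher and 8.3% lower. The median log2 fold change of the 8 genes was -0.15, against -0.01 over all tested genes. Levels of the PE and control libraries did not overlap for 7 of the 8 genes, and the same held for 56.7% of all tested genes. Together the 8 genes took 0.269% and 0.272% of all counts in the PE libraries, against 0.259% and 0.27% in the control libraries, so their summed share overlapped between groups while single genes moved in opposite directions. The number called among the 8 depended on the libraries used. In edgeR none of the 8 was called with either PE library left out, where the spread came from the control pair alone. The share called over all tested genes was then lower as well. More of the 8 were called with either control library left out, where the spread came from the PE pair alone. The share called over all tested genes was then higher as well, so these shifts are not particular to the 8 genes.

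**Figure D1:**
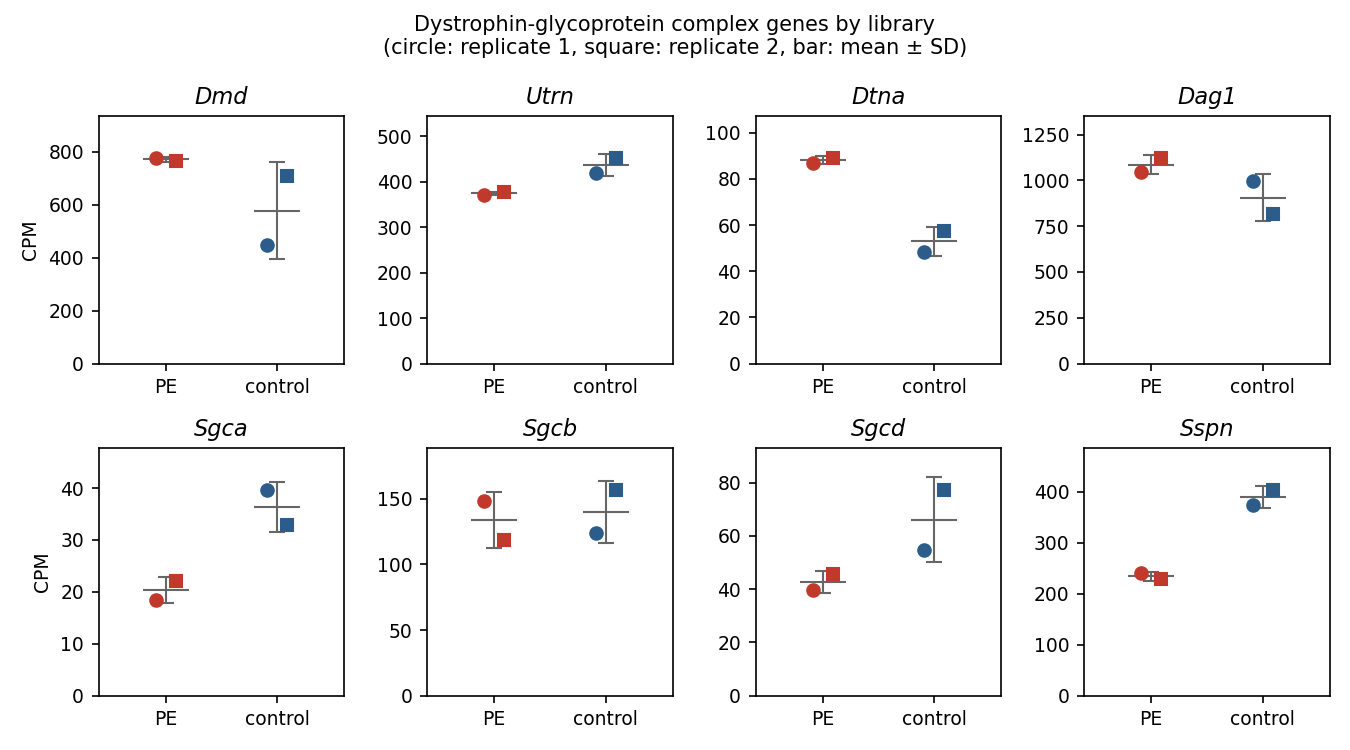
Level of each of the 8 genes in CPM (vertical axis from 0) in PE and control libraries, with circles for replicate 1, squares for replicate 2 and bars for mean ± SD (n = 2). The PE and control points are apart in every panel except that of Sgcb, and the control points of Dmd lie at 448 and 708 CPM.

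The first role is that of the cytoskeletal link. Dmd (ENSRNOG00000046366), the gene of dystrophin, was at 778 and 763 CPM in PE libraries, against 448 and 708 CPM in control libraries. Both PE libraries were higher than both controls, but control replicate 1 lay far below the other libraries. The log2 fold change was 0.42 ± 0.22 (SE), with a 95% interval of -0.07 to 0.90, and did not pass (adjusted p = 0.243, edgeR). It was 0.13 without control replicate 1 (adjusted p = 0.52) and 0.78 without control replicate 2, where it passed (adjusted p = 4.51e-07) with the spread taken from the PE pair alone.

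Utrn (ENSRNOG00000011058), the gene of utrophin, was at 371 and 376 CPM in PE libraries, against 419 and 453 CPM in control libraries. The groups did not overlap and the difference was small. Its log2 fold change was -0.22 ± 0.16, with a 95% interval of -0.57 to 0.13 (adjusted p = 0.405, edgeR), and it passed in none of the alternatives planned for it.

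Because Dmd and Utrn encode related proteins, their counts were also compared within each library, where library size factors cancel. There were 2.09 and 2.03 Dmd counts per Utrn count in PE libraries, against 1.07 and 1.56 in control libraries. The ratio was higher in both PE libraries than in either control, by 0.67 on the log2 scale, with means of 1.04 ± 0.03 in PE and 0.37 ± 0.39 in control libraries (SD, n = 2). With 2 libraries against 2, the two-sided exact permutation test cannot give a p below 0.333, which is the value it gave. Leaving out control replicate 1 gave a difference of 0.40, and leaving out control replicate 2 gave 0.95.

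Dtna (ENSRNOG00000016671), the gene of alpha-dystrobrevin, which binds dystrophin and carries syntrophins, rose 1.66-fold. It was at 86.8 and 89.3 CPM in PE libraries, against 48.5 and 57.4 CPM in control libraries. Each group was tight and the groups were well apart. The log2 fold change was 0.73 ± 0.17 (adjusted p = 0.0136, edgeR), and it ranged from 0.62 to 0.86 when single libraries were left out. The call was lost without PE replicate 1 (adjusted p = 0.192) and without PE replicate 2 (adjusted p = 0.223). Counts of Dtna per Dmd count, a ratio that was not planned, were 0.112 and 0.117 in PE libraries, against 0.108 and 0.0811 in control libraries.

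The link through the membrane is dystroglycan. Dag1 (ENSRNOG00000019400), whose single product is cut into alpha- and beta-dystroglycan, was at 1048 and 1125 CPM in PE libraries, against 996 and 816 CPM in control libraries. PE replicate 1 and control replicate 1 were close to each other. The log2 fold change was 0.26 ± 0.18, with a 95% interval of -0.13 to 0.65, and did not pass (adjusted p = 0.376, edgeR). It was 0.42 and passed without control replicate 1 (adjusted p = 0.00988), and was 0.13 without control replicate 2.

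**Figure D2:**
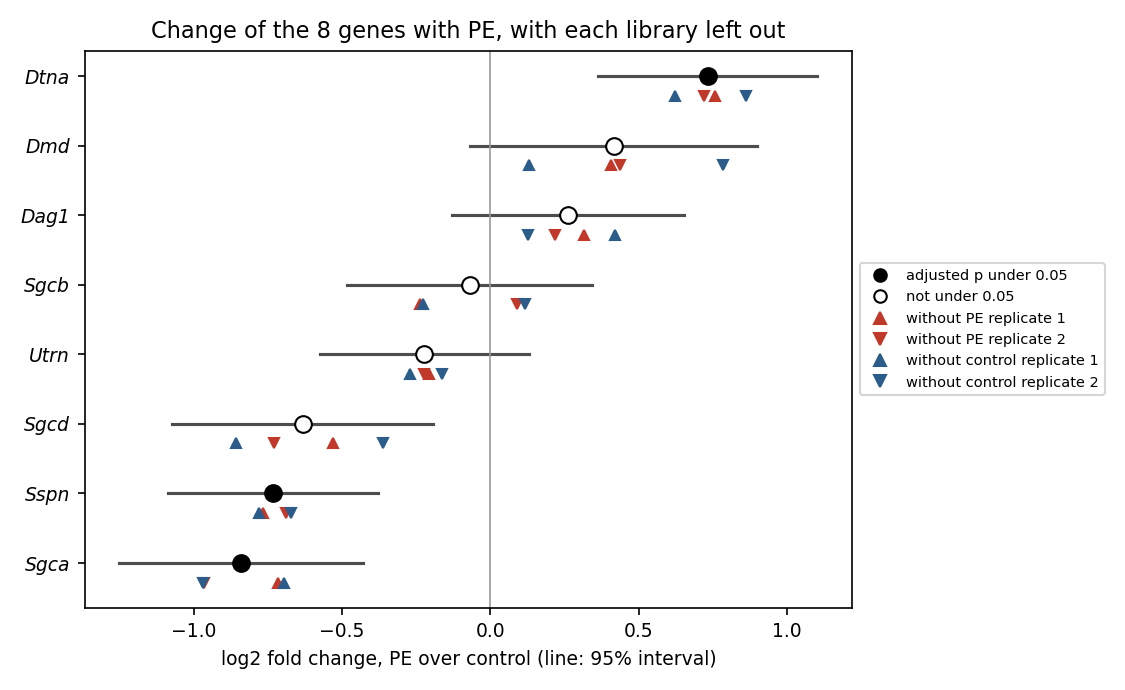
Log2 fold change of each gene, PE over control (horizontal axis), with its 95% interval as a line and a filled circle where the adjusted p was under 0.05. Triangles give the value with 1 library left out. Dtna lies at 0.73, Sspn at -0.73 and Sgca at -0.84, and the triangles of Sgcb lie on both sides of 0.

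The sarcoglycans are single-pass membrane proteins that assemble beside dystroglycan. Sgca (ENSRNOG00000003998), the gene of alpha-sarcoglycan, a form of striated muscle, was 1.79-fold lower with PE. It was at 18.5 and 22.1 CPM in PE libraries, against 39.7 and 32.9 CPM in control libraries, with no overlap. The log2 fold change was -0.84 ± 0.18 (adjusted p = 0.0115, edgeR), and the call was lost without PE replicate 1 (-0.71, adjusted p = 0.283) and without PE replicate 2 (-0.97, adjusted p = 0.0755 in edgeR).

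The value of Sgca carries a limit of position. In the RefSeq annotation of GRCr8 the span of Sgca overlaps that of Col1a1, a collagen gene of fibroblasts, and contains Hils1, a gene known from the testis. Col1a1 had 183703 and 193987 counts in PE libraries, against 357488 and 204214 in control libraries. Counts of Sgca were 1039 and 1042 in PE libraries, against 2130 and 1501 in control libraries, which is 0.566% and 0.537% of the Col1a1 counts in PE libraries, against 0.596% and 0.735% in control libraries. Per Col1a1 count, Sgca was lower by 0.26 on the log2 scale in PE libraries, while the 2 controls differed by 0.30. The strand setting of the counting is not given in the sources used here, and the overlap is that of GRCr8 while the submitters' processing notes name Rnor_6.0. Whether reads at the overlap were assigned to the right gene was not examined, and the part of this overlap in the fall of Sgca was not tested. Col1a1 itself did not pass (-0.59 ± 0.23, adjusted p = 0.11 in edgeR). Hils1 had 31 and 26 counts in PE libraries, against 4 and 0 in control libraries, which is few beside the counts of Sgca. Of the other 7 genes, Dmd, Utrn, Dtna, Dag1, Sgcd and Sspn also overlap genes of that annotation, and those at Dmd and Sspn include protein-coding genes. None of these overlapping genes was found by name in the count table. A gene listed there under another name would have been missed, so their part in the counts was not examined.

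**Figure D3:**
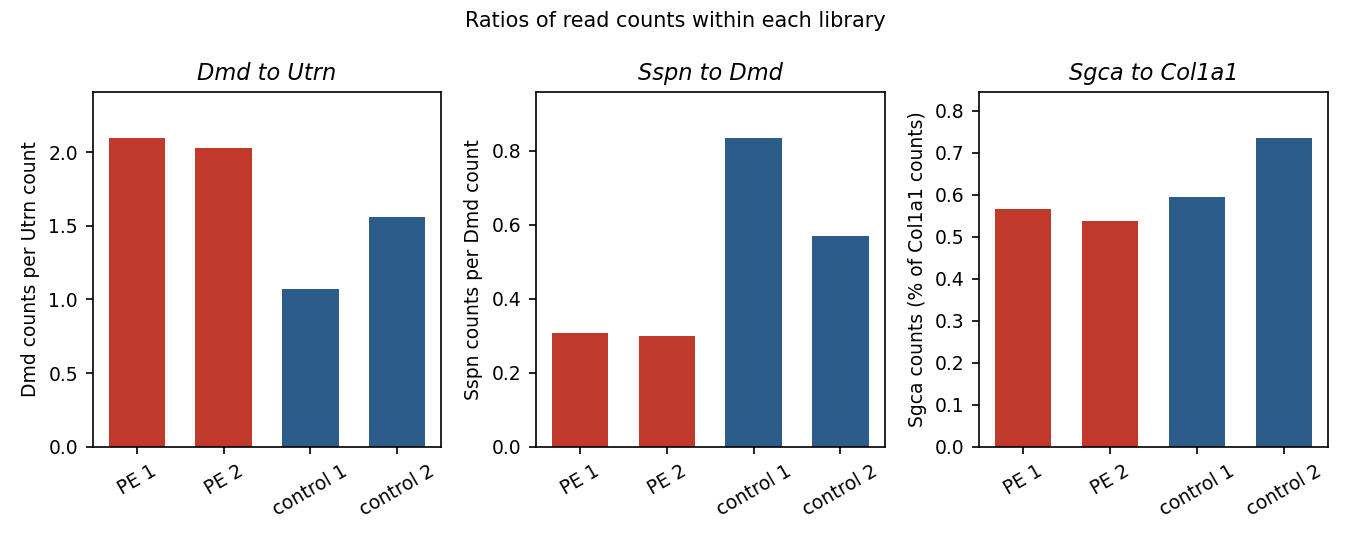
Ratios of read counts within each library for Dmd to Utrn, Sspn to Dmd and Sgca to Col1a1 (vertical axes from 0, 1 bar per library, PE libraries left). PE libraries had 2.09 and 2.03 Dmd counts per Utrn count, against 1.07 and 1.56 in controls, and Sgca stayed between 0.537% and 0.735% of Col1a1 in all 4 libraries.

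Sgcb (ENSRNOG00000002135), the gene of beta-sarcoglycan, the form around which the others assemble, was at 149 and 119 CPM in PE libraries, against 124 and 157 CPM in control libraries. The 2 groups overlapped. Its log2 fold change was -0.07 ± 0.19, with a 95% interval of -0.48 to 0.34 (adjusted p = 0.851, edgeR). The sign turned without PE replicate 2 (0.09) and without control replicate 2 (0.12), so no direction can be given.

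Sgcd (ENSRNOG00000002372), the gene of delta-sarcoglycan, which pairs with beta-sarcoglycan, was at 39.6 and 45.6 CPM in PE libraries, against 54.7 and 77.4 CPM in control libraries. Both PE libraries were below both controls, and the controls were far from each other. The log2 fold change was -0.63 ± 0.20, with a 95% interval of -1.07 to -0.19, and did not pass (adjusted p = 0.0571, edgeR). DESeq2 called it (adjusted p = 0.0273), as did edgeR scaled by library size only (adjusted p = 0.0339) or run unfiltered (adjusted p = 0.00917). It was at -0.86 and passed without control replicate 1 (adjusted p = 4.78e-07), and was at -0.36 without control replicate 2 (adjusted p = 0.0688, edgeR). Its call therefore depends on the test and on the control library used. Counts of Sgcd per Sgcb count were 0.267 and 0.385 in PE libraries, against 0.443 and 0.493 in control libraries, lower in both PE libraries than in either control. This ratio was not planned and uses the Sgcd counts again. The two-sided exact permutation test gave a p of 0.333, the smallest it can give here.

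Sspn (ENSRNOG00000001807), the gene of sarcospan, a protein with 4 membrane passes that binds the sarcoglycans, was 1.66-fold lower with PE. It was at 240 and 228 CPM in PE libraries, against 374 and 404 CPM in control libraries. The groups were far apart and each was tight. The log2 fold change was -0.73 ± 0.16 (adjusted p = 0.0110, edgeR), and it ranged from -0.78 to -0.67 when single libraries were left out. The call was lost without PE replicate 1 (adjusted p = 0.243) and without PE replicate 2 (adjusted p = 0.314). There were 0.309 and 0.299 Sspn counts per Dmd count in PE libraries, against 0.834 and 0.571 in control libraries. This ratio, chosen after the values were seen, was 1.18 lower on the log2 scale in PE than in control libraries. The SD of the log2 ratio was 0.03 in PE and 0.39 in control libraries, and Dmd was far lower in control replicate 1 than in the other libraries. The two-sided exact permutation test gave a p of 0.333, the smallest it can give here.

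The authors' deposited table gave log2 fold changes of 0.74 for Dtna, -0.84 for Sgca, -0.73 for Sspn and -0.63 for Sgcd, with adjusted p of 0.00109, 0.000857, 0.000387 and 0.0273. In the authors' deposited table Dmd, Utrn, Dag1 and Sgcb were not under 0.05, at adjusted p of 0.219, 0.472, 0.397 and 0.893.

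Several marker lists of other cells moved with the groups. Of 7 tested fibroblast markers 2 were lower and 5 did not pass, with a summed level of 10082 and 9994 CPM in PE libraries, against 18165 and 16275 CPM in control libraries. That sum was carried by a few matrix genes, chiefly Col3a1, at 2603 and 2843 CPM in PE libraries, against 7841 and 6076 CPM in control libraries. Of the 7 markers 4 were below 0 and 3 above, with Dcn at 0.50 ± 0.27, Lum at 0.11 ± 0.30 and Tcf21 at 0.04 ± 0.16, none of which passed, so the sum does not stand for the whole list. Endothelial markers summed to 132 and 136 CPM in PE libraries, against 220 and 218 CPM in control libraries, with 5 of 7 lower. Macrophage markers summed to 244 and 220 CPM in PE libraries, against 328 and 375 CPM in control libraries. Of the 8 macrophage markers 3 were called lower and 5 did not pass, and the log2 fold changes of all 8 were below 0. Smooth muscle and pericyte markers summed to 1587 and 1841 CPM in PE libraries, against 1704 and 1191 CPM in control libraries, with 3 of 8 higher and 1 lower. These counts depended on the libraries used. With PE replicate 1 left out, 2 fibroblast, 1 endothelial, 0 macrophage and 3 smooth muscle markers were called, and with PE replicate 2 left out 1, 1, 0 and 3, while 4 macrophage markers were under 0.05 unadjusted each time. With control replicate 1 left out the counts were 3, 4, 7 and 6, and with control replicate 2 left out 6, 5, 5 and 5. Schwann cell markers summed to 10.0 and 9.68 CPM in PE libraries, against 9.71 and 11.4 CPM in control libraries, and none of 4 passed in edgeR or DESeq2 with all libraries, with 1 under 0.05 unadjusted in edgeR. In edgeR 1 was called lower with scaling by library size only, unfiltered, or with control replicate 2 left out. No tested marker was at 0 in any library, and of the untested ones Col1a2 had 1 and 1 counts in PE libraries, against 5 and 1 in control libraries. Whether reads of Col1a2 were assigned to it was not examined, so these counts do not show that the gene was silent. At least Utrn, Dag1, Sgcb, Sgcd and Sspn are also expressed outside cardiomyocytes, and this list is not complete. In these bulk samples fewer cells of a type and less RNA per cell cannot be told apart. The part of other cells in the changes of the 8 genes was not tested.

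The extracellular partners of dystroglycan changed in both directions. Of 8 tested ligand genes 2 rose and 3 fell while 3 were not called, with a median log2 fold change of 0.003. Lamc1, a laminin gamma chain, was at 2910 and 3191 CPM in PE libraries, against 1696 and 1305 CPM in control libraries, and rose by 1.02 ± 0.19 on the log2 scale (adjusted p = 0.0052, edgeR). Lama4, the alpha-4 chain of laminins of blood vessels, rose by 0.74 ± 0.16. Lama2, the alpha-2 chain of the laminin that dystroglycan binds in muscle, was at 636 and 630 CPM in PE libraries, against 968 and 948 CPM in control libraries. Lama2 fell by 0.60 ± 0.16 on the log2 scale (adjusted p = 0.0318, edgeR), and is named outside the rule for naming genes, after its values were seen. Lamb2, a laminin beta chain, and Agrn, agrin, fell by 0.70 ± 0.19 and 0.79 ± 0.19 on the log2 scale. Of these 5 calls, that of Lamc1 alone was kept when PE replicate 1 or PE replicate 2 was left out. Fibroblasts and endothelial cells also make these proteins. Endothelial markers summed lower in PE libraries, and fibroblast markers were split in direction as given above. The part of these cells in the changes of the ligand genes was not tested.

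Of 14 further genes of the complex and its partners that were tested, 1 rose and 13 did not pass. DESeq2 called 2 and edgeR run unfiltered 3, and edgeR called 4 when control replicate 1 was left out and 3 when control replicate 2 was left out. The gene that rose was Synm, synemin, an intermediate filament protein that binds dystrophin and dystrobrevin, at 99.4 and 108 CPM in PE libraries, against 36.5 and 42.1 CPM in control libraries (1.40 ± 0.17, adjusted p = 0.000372, edgeR). Sgce, the gene of epsilon-sarcoglycan, named here for its role and after its values were seen, was at 0.04 ± 0.16 and did not pass (adjusted p = 0.902, edgeR). The syntrophin genes Sntb1 and Sntb2, named likewise, were at -0.32 ± 0.17 and -0.001 ± 0.18, and neither passed (adjusted p = 0.255 and 0.998, edgeR).

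Of 16 tested genes of dystroglycan glycosylation, the sugar chain that laminin binds, none passed in edgeR or DESeq2, with 1 under 0.05 unadjusted in edgeR. With the spread from the PE pair alone, 6 passed without control replicate 1 and 2 without control replicate 2. Pomgnt1, a glycosyltransferase, was at 0.46 ± 0.18 (adjusted p = 0.126, edgeR). The median of the list was 0.16, with 10 genes above 0 and 6 below.

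Integrins are the other main laminin receptors of muscle, and 5 of 14 tested genes of integrin adhesion rose and 9 did not pass, with a median of 0.20. Itga7, the laminin-binding integrin alpha chain of muscle, was at 198 and 262 CPM in PE libraries, against 114 and 76.8 CPM in control libraries (1.27 ± 0.22, adjusted p = 0.00338, edgeR). Its partner Itgb1 rose by 0.90 ± 0.17, Itgb1bp2, melusin, which binds the integrin beta chain in muscle, by 1.42 ± 0.17, and Ilk, integrin-linked kinase, by 0.81 ± 0.21. The number called was 2 without PE replicate 1, where Itgb1, Ilk and Itga5 were lost, and 3 without PE replicate 2, where Ilk and Itga5 were lost. Itga5, an integrin alpha chain that binds fibronectin, had risen by 0.70 ± 0.20 and is named after its values were seen. Of 14 tested genes of membrane repair and caveolae, 6 rose and 2 fell, with a median of 0.26. There were 5 calls without PE replicate 1 and 4 without PE replicate 2. Anxa5 and Anxa2, annexins, rose by 1.17 ± 0.17 and 1.07 ± 0.16, and Cavin4, a caveolar protein of muscle, by 1.05 ± 0.16. Cav2, a caveolin, fell by 1.21 ± 0.23 on the log2 scale, at 2.51 and 2.67 CPM in PE libraries, against 5.39 and 6.63 CPM in control libraries. Cav1 was at -1.02 ± 0.16 (adjusted p = 0.00201, edgeR) and is named after its values were seen. Cav1 and Cav2 are strongly expressed in endothelium, of whose 7 tested markers 5 were lower and 2 were above 0 without passing. The part of endothelial cells in the falls of Cav1 and Cav2 was not tested.

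**Figure D4:**
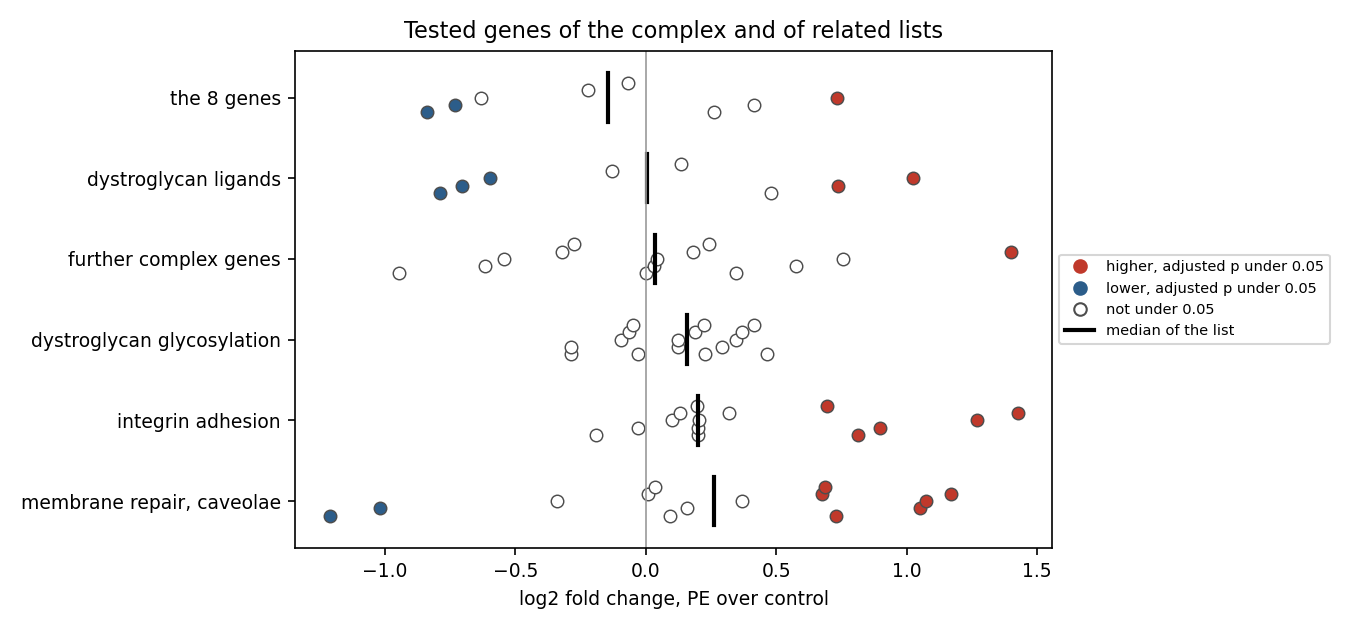
Log2 fold change, PE over control (horizontal axis), of every tested gene of the complex and of 5 related lists, red where higher and blue where lower at an adjusted p under 0.05, white otherwise, with a bar at the list median. Glycosylation genes show no coloured point, and integrin adhesion genes show 5 red points and no blue one.

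The genes whose pattern over the 4 libraries was nearest to that of Sgca, by the root mean square difference of centred log2 CPM, were B3gntl1 (0.0183), Chst12 (0.0235) and Rpp25 (0.0251). Nearest to Dtna were Cttnbp2nl (0.0151), Tmem65 (0.016) and Matn4 (0.0215). Likeness over 4 libraries is a weak description, since many genes separate the groups in the same way.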

How the data were processed

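The authors deposited raw counts per gene for 4 libraries. Cutadapt 2.0, STAR 2.4.2a, featureCounts 1.6.4 and Rnor_6.0 are named, per the submitters' processing notes. Parameters, annotation release and strandedness of the counting: not given in the sources used here. The authors deposited a second table with mean normalized signal, log2 fold change, test score, p-value and adjusted p-value per gene, per the file headers. All 20666 of its log2 fold changes were matched by DESeq2 run on the counts, to within 1e-06, and both called 2555 genes. Gene names came from that table.

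Counts were tested with edgeR 4.0.16 (R 4.3.3, limma 3.58.1), with TMM factors, a filter at a minimum count of 10 and total of 15, and 2 residual degrees of freedom. Standard errors are the absolute log2 fold change over the root of F. Alternatives were DESeq2 1.42.0, other factors, no filter, no mitochondrially encoded genes, a replicate block and each library left out. In simulated counts of 15257 genes for PE against control, the fit recovered 16% of true 1.5-fold changes, 68% of 2-fold and 96% of 4-fold ones. There 50 genes were changed at each of 1.5-, 2-, 4- and 8-fold, and each gene had the dispersion of the trend. Far more genes, 2393, were called in the data, so these shares need not hold for them. Chi-square per degree of freedom between replicates was 19.8 for PE and 133 for control, so no library was a copy of another. The 8 genes and the lists were chosen with earlier results of these data known. The rule named the 8 genes, and of each other list up to 4 called genes with the largest change or, with none called, the 2 most abundant. Some genes that this rule names are not reported here. Genome coordinates of the counted genes were not used, and the promoters are those of RefSeq on GRCr8, with 7 of the 8 genes matched by symbol.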

Additional observations from a re-analysis of the deposited data

How the results depend on the processing

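The 3 calls among the 8 genes (Dtna higher, Sgca and Sspn lower) were made with every other scaling, with DESeq2, unfiltered and without mitochondrially encoded genes, and none of the 8 genes changed direction in those fits. Sgcd was also called with DESeq2 (-0.63), with library sizes alone (-0.68) and unfiltered (-0.63). Leaving out single libraries gave 1205 to 4755 genes called and 0 to 5 of the 8. Log2 fold changes then ranged from 0.13 to 0.78 for Dmd, 0.62 to 0.86 for Dtna, 0.13 to 0.42 for Dag1, -0.97 to -0.69 for Sgca, -0.24 to 0.12 for Sgcb, -0.86 to -0.36 for Sgcd and -0.78 to -0.67 for Sspn. With 1 library left in a group, that library is assumed to vary like the pair of the other group, and the control pair differed more. Of 27 called genes named from the other lists, leaving out PE replicate 1 lost 14 and leaving out PE replicate 2 lost 13, and none changed sign. Same-numbered libraries deviated in opposite directions (r = -0.23 across 15257 genes, which are not independent), so the numbers are not shown to pair them. With the replicate number as a block, 1964 genes and 2 of the 8 were called, and Dtna was at 0.74 (adjusted p = 0.055, edgeR). With the numbers crossed, a block chosen after seeing the data, 4677 genes and 5 of the 8 were called. Why these counts differ was not tested. All 8 genes had at least 1039 counts in every library, so the spread between 2 libraries a group, not counting error, limits these values.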
